A study of Mus musculus with 6 samples.

Results

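Primed epiblast marker genes were examined in mouse embryonic stem (ES) cells with and without Satb1, whose protein binds DNA and shapes chromatin loops. The 10 genes, Fgf5, Fgf15, Otx2, Pou3f1, Sox3, Zic2, Sall2, Tcf15, Cldn6 and Igfbp2, were taken by name as markers of the epiblast at and after implantation, and all 10 were measured among the 19938 genes of the array table that carried a single gene symbol. Each had 1 probe set. Total RNA was labelled with biotin and measured on 1-colour arrays, 3 of wild-type cells (WT replicates 1, 2 and 3) and 3 of Satb1-/- cells (replicates 1-1, 1-2 and 2-1, named as clones in the labels, which leave the first number unexplained). Per the labels and the series' design, both groups carried a HygroTK reporter in the Oct4 locus, were passaged with serum and LIF, and grew for 3 days on irradiated feeder cells under hygromycin, which keeps cells that express Oct4; feeders were then reduced by settling. Nothing in the labels says whether replicate arrays stand for independent cultures, and the spread behind every p-value may therefore be technical.

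The pluripotent epiblast passes from a naive state, which cultured ES cells resemble, through a formative state to the primed state that follows implantation. On the way, naive regulators such as Nanog and Klf4 decline and a set of genes including Fgf5, Otx2 and Pou3f1 comes on, driven in large part by FGF signalling through ERK. ES cells in serum with LIF are a mixed population, and low or patchy expression of primed genes in them is well known. In such bulk RNA, fewer cells that express a gene and less RNA of it per cell cannot be told apart.

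Values are log2 expression values, and differences are Satb1-/- minus WT on that scale, each with its standard error (SE) and 95% interval from limma. Array medians over all probe sets lay between 4.69 and 4.85, and the signals of Fgf5, Fgf15 and Sall2 were only a little above or level with them. Satb1 read 5.12, 4.99 and 5.31 in WT replicates 1, 2 and 3 and 4.38, 4.47 and 4.57 in Satb1-/- replicates 1-1, 1-2 and 2-1 (difference -0.67, SE 0.12, limma adjusted p = 0.022). The values of the groups did not overlap, but the call was lost without WT replicate 1 or any 1 Satb1-/- array, with differences between -0.74 and -0.58 over the arrays left out. The Satb1-/- values of Satb1 lay below the smallest array median of 4.69, and its WT values were only a little above the largest. The labels do not place the probes of Satb1 relative to the deletion. The ES cell genes Pou5f1 (10.22 in WT, 9.83 in Satb1-/-), which encodes Oct4, and Sox2 (9.94 and 10.24) had strong signals in both groups.

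The promoters of the 3 members on which the results turn are shown for reference: Otx2 and Igfbp2 had the largest differences, in opposite directions, and Fgf5 is the standard marker of the state. Each run is the 250 bases before the outermost RefSeq start of the gene (build GRCm38.p6), 5′ to 3′ on the gene's strand, with every CG dinucleotide, the main target of DNA methylation, in capitals.
Fgf5, chr5:98253934-98254183 (plus strand): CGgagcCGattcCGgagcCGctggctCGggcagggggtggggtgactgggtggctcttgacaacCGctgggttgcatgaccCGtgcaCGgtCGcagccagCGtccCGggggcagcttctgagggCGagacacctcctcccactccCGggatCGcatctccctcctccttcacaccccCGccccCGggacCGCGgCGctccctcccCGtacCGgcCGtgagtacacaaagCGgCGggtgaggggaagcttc
Otx2, chr14:48667645-48667894 (minus strand): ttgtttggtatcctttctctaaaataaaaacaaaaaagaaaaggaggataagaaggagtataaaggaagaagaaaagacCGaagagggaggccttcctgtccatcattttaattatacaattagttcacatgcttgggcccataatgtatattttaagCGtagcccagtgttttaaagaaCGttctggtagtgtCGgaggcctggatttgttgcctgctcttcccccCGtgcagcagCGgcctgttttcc
Igfbp2, chr1:72824230-72824479 (plus strand): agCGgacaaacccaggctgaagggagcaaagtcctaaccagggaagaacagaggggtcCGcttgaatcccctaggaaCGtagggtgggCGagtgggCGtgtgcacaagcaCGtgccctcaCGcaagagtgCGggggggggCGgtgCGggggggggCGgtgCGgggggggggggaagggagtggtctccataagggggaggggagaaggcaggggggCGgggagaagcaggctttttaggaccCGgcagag
The Fgf5 run held 24 CG dinucleotides, that of Igfbp2 14 and that of Otx2 6, against a median of 6 over 27025 promoters of the same length. The share of A and T, the bases that SATB1 sites are known to be rich in, was 29.2% before Fgf5, 32.8% before Igfbp2 and 58% before Otx2, with a median of 48% over all promoters. Of the members, 5 had an entry in the promoter table (also Sall2, with 72% A and T, and Cldn6, with 46.4%). The octamer ATGCAAAT, bound by POU factors, was in none of these 5 and in 1.62% of all promoters, searched on both strands. The OTX motif TAATCC was also in none of them and in 6.37% of all promoters, and ACAAAG, a core of SOX sites, was in that of Fgf5 and in 16.5% of all. None of the motifs searched contains another. The arrays carry no binding or methylation data for these windows.

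With all 6 arrays, 0 of the 10 marker genes passed the limma threshold (an adjusted p under 0.05, by the Benjamini-Hochberg method across the 19938 genes), where 1.4% of all genes did, 0.923% higher and 0.476% lower in Satb1-/-. Otx2 was lower by 1.29 and Igfbp2 higher by 0.99, and the other differences lay between -0.40 and 0.33. At an unadjusted p under 0.05 there were 5 members, Otx2, Fgf15 and Fgf5 on the lower side and Igfbp2 and Zic2 on the higher, against 10.5% of all genes. The arrays of the groups did not overlap for 3 members. Otx2 and Fgf15 were lower in every Satb1-/- array than in any WT array, as were 6.97% of all genes, and Igfbp2 was higher in every one, as were 8.18%. In all, 8 members had a difference below 0 and 2 above, where 10259 of the 19938 genes were below 0. Of the 8, Sall2 (-0.02), Tcf15 (-0.06) and Cldn6 (-0.14) lost that sign with some single arrays left out. The median was -0.15 for the members, against 0.00 over all genes. The median absolute difference was 0.26 for the members and 0.10 for all genes.

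**Figure D1:**
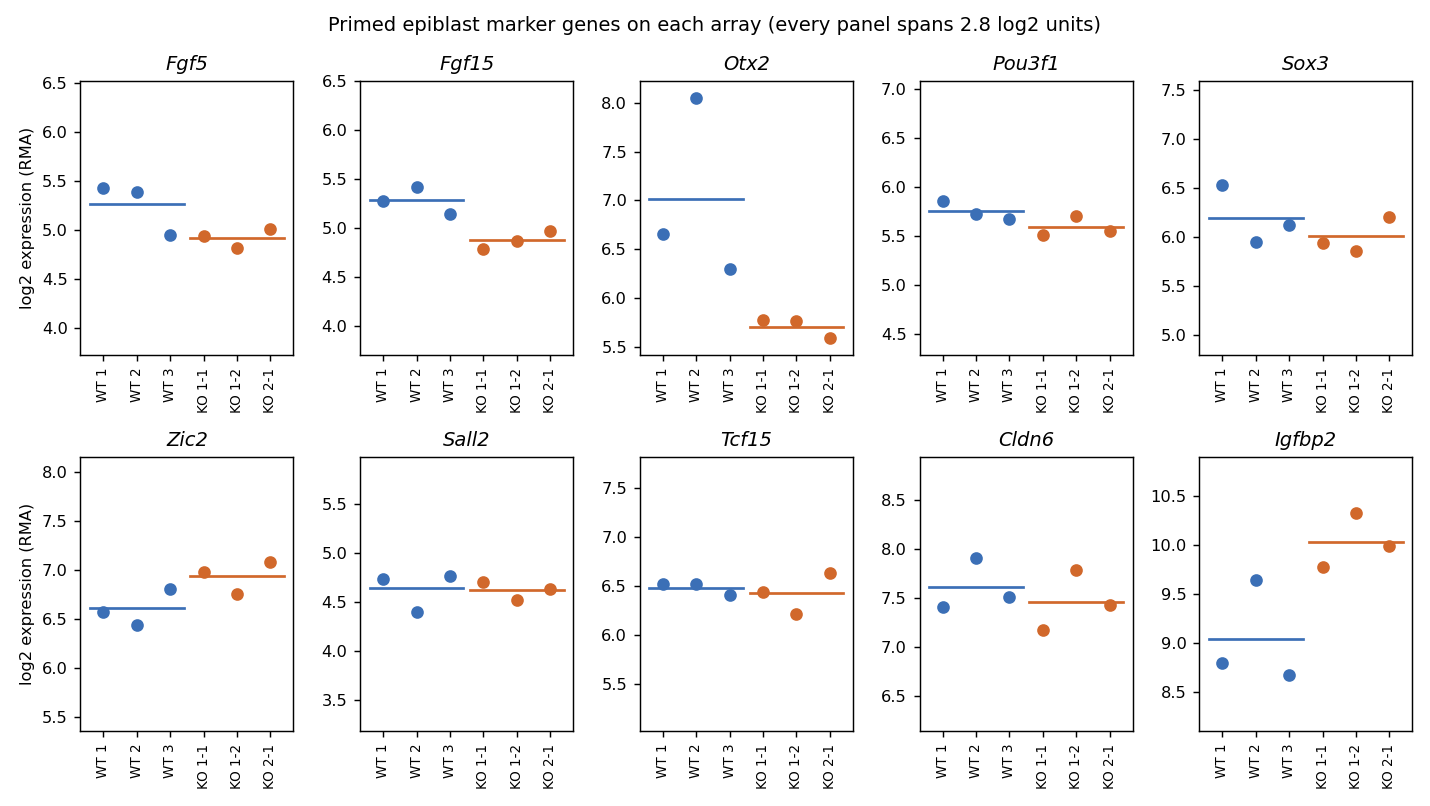
Log2 expression of the 10 marker genes on each array, with a point per array (blue, WT; orange, Satb1-/-, written KO) and a line at each group's mean; all panels span the same number of log2 units. Otx2, Fgf15 and Igfbp2 are the genes whose groups do not overlap, and WT replicate 2 stands above the other WT arrays for Otx2 (8.05) and Igfbp2 (9.65).

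Among the ligands, Fgf5 encodes a fibroblast growth factor that is switched on across the epiblast as it leaves the naive state. It read 5.43, 5.39 and 4.95 in WT replicates 1, 2 and 3 and 4.94, 4.81 and 5.01 in Satb1-/- replicates 1-1, 1-2 and 2-1. WT replicates 1 and 2 were the higher arrays, while WT replicate 3 lay within the range of the Satb1-/- arrays. The difference of -0.33 (SE 0.14, 95% interval -0.64 to -0.02, limma adjusted p = 0.423) did not pass the threshold; it was -0.49 without WT replicate 3 (adjusted p = 0.0521) and -0.25 without WT replicate 1 (adjusted p = 0.669).

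Fgf15, which encodes an endocrine-type FGF expressed in early neural and epiblast-derived tissue, read 5.27, 5.42 and 5.14 in WT replicates 1, 2 and 3. Its values were 4.78, 4.87 and 4.97 in Satb1-/- replicates 1-1, 1-2 and 2-1. All Satb1-/- values lay below all WT values, by a narrow gap between 4.97 and 5.14. The difference was -0.40 (SE 0.11, interval -0.65 to -0.15, limma adjusted p = 0.154), and leaving out any 1 array kept it between -0.47 and -0.33. It passed the threshold only among the alternatives with weighted arrays (-0.45, adjusted p = 0.0411).

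Of the transcription factors, Otx2 had the largest difference of all members. It encodes a homeodomain protein that directs the exit from the naive state and later forms the head and forebrain. It read 6.66, 8.05 and 6.30 in WT replicates 1, 2 and 3 and 5.78, 5.77 and 5.59 in Satb1-/- replicates 1-1, 1-2 and 2-1. The WT arrays spanned 1.75 log2 units and the Satb1-/- arrays 0.19, and WT replicate 2 stood far above the rest. The means were 7.01 ± 0.92 (SD, n = 3) and 5.71 ± 0.11 (SD, n = 3), a 2.45-fold lower level in Satb1-/-. The difference of -1.29 (SE 0.35, interval -2.06 to -0.52) had a limma adjusted p of 0.128, and an exact two-sided permutation test of the 6 arrays gave p = 0.1, the smallest that 3 against 3 arrays allow. Leaving out WT replicate 2 reduced the difference to -0.77 but brought it past the threshold (adjusted p = 0.0354). Without WT replicate 3 it was -1.64 (adjusted p = 0.0146) and without WT replicate 1 it was -1.47 (adjusted p = 0.189). Without 1 of the Satb1-/- arrays it lay between -1.33 and -1.23, with adjusted p-values of 0.331 to 0.427.

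Zic2, a zinc-finger factor that occupies enhancers in the primed state, went the other way from Otx2. It read 6.57, 6.44 and 6.81 in WT replicates 1, 2 and 3 and 6.98, 6.76 and 7.08 in Satb1-/- replicates 1-1, 1-2 and 2-1. The groups overlapped, since Satb1-/- replicate 1-2 lay below WT replicate 3. The difference was 0.33 (SE 0.13, interval 0.04 to 0.63, limma adjusted p = 0.373), between 0.25 and 0.43 with 1 array left out.

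The other 4 factors showed differences smaller than their spread between arrays or close to it. Pou3f1 (Oct6), a POU factor of the epiblast and neural plate, read 5.85, 5.72 and 5.67 in WT replicates 1, 2 and 3 and 5.51, 5.70 and 5.55 in Satb1-/- replicates 1-1, 1-2 and 2-1. Its difference was -0.16 (interval -0.40 to 0.08, limma adjusted p = 0.722). Sox3, a relative of Sox2 that acts with it in the epiblast and the neural plate, read 6.53, 5.95 and 6.12 against 5.94, 5.86 and 6.21 in the same order. WT replicate 1 was its only array above 6.21. The difference was -0.19 (interval -0.54 to 0.16, limma adjusted p = 0.804).

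Tcf15, a basic helix-loop-helix factor that responds to FGF signalling in cells primed to differentiate, read 6.52, 6.52 and 6.41 in WT replicates 1, 2 and 3 and 6.44, 6.21 and 6.63 in Satb1-/- replicates 1-1, 1-2 and 2-1. The lowest and the highest of its 6 values were both from Satb1-/- arrays. The difference of -0.06 had an interval of -0.33 to 0.22 (limma adjusted p = 0.953). Sall2, a zinc-finger factor of the Spalt family, read 4.74, 4.40 and 4.77 against 4.71, 4.52 and 4.63. Its difference of -0.02 (interval -0.30 to 0.26, limma adjusted p = 0.988) changed sign under several alternatives. These intervals bound the size of a change in Tcf15 and Sall2 and do not show its absence.

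Among the junction and secreted proteins, Igfbp2 had the largest increase in value of all members. It encodes a secreted protein that binds insulin-like growth factors. It read 8.80, 9.65 and 8.68 in WT replicates 1, 2 and 3 and 9.78, 10.33 and 9.99 in Satb1-/- replicates 1-1, 1-2 and 2-1. Every Satb1-/- value lay above every WT value, with WT replicate 2 and Satb1-/- replicate 1-1 closest to each other. The means were 9.04 ± 0.53 (SD, n = 3) and 10.03 ± 0.27 (SD, n = 3), a 1.98-fold higher level in Satb1-/-. The difference of 0.99 (SE 0.23, interval 0.47 to 1.51) had a limma adjusted p of 0.0771. Without WT replicate 2 it was 1.29 and passed the threshold (adjusted p = 0.00629), and without any other single array it lay between 0.81 and 1.11 and did not. The mean level of 19 feeder fibroblast markers, each gene centred on its 6 arrays, was -0.14, 0.07 and -0.30 in WT replicates 1, 2 and 3 and 0.21, 0.00 and 0.16 in Satb1-/- replicates 1-1, 1-2 and 2-1. Within WT these levels ranked the arrays as Igfbp2 did, with replicate 2 highest and replicate 3 lowest. Within Satb1-/- the order was the reverse, with replicate 1-2 lowest for the feeder markers and highest for Igfbp2. Of the 19 markers, 16 had a difference above 0, as did 9679 of all 19938 genes. Without WT replicate 2, 1 of the markers passed the threshold, in a setting where 282 of all genes passed. The part of feeder RNA in the Igfbp2 difference was not tested.

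Cldn6, a claudin of epithelial tight junctions that marks early epiblast-derived cells, read 7.40, 7.91 and 7.51 in WT replicates 1, 2 and 3. Its values were 7.17, 7.78 and 7.43 in Satb1-/- replicates 1-1, 1-2 and 2-1. Each group spanned more (0.52 and 0.61) than the difference between them, which was -0.14 (interval -0.53 to 0.25, limma adjusted p = 0.891) and near 0 without WT replicate 2 (0.01) or Satb1-/- replicate 1-1 (0.00).

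**Figure D2:**
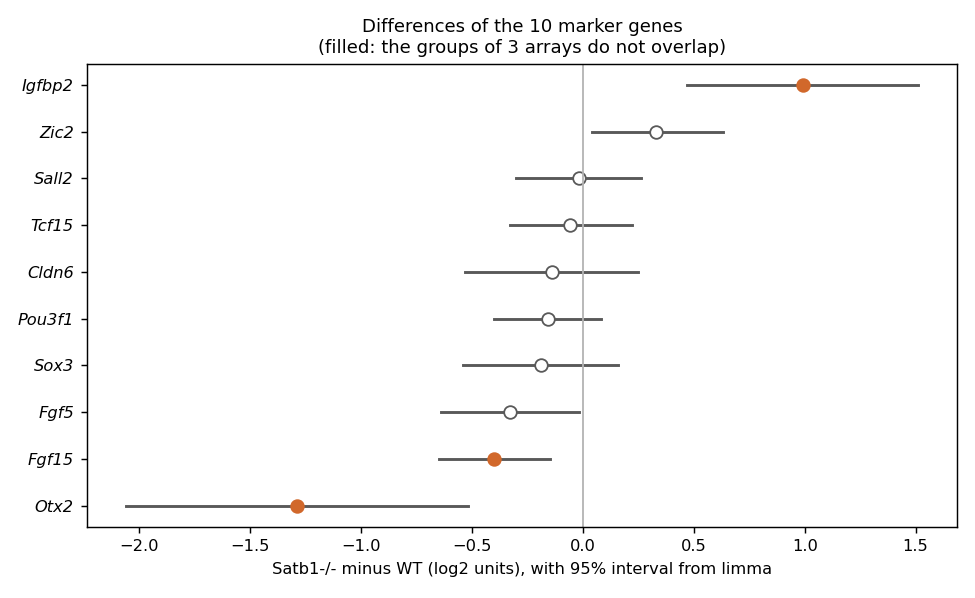
Difference between Satb1-/- and WT for each marker gene in log2 units, with its 95% interval from limma; filled points are genes whose groups of arrays do not overlap. Otx2 (-1.29) and Igfbp2 (0.99) lie furthest from 0, in opposite directions, and the intervals of Pou3f1, Sox3, Tcf15, Sall2 and Cldn6 include 0.

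Like most genes on these arrays, the members varied more between WT than between Satb1-/- arrays. Their median SD was 0.24 in WT and 0.14 in Satb1-/-, with the wider spread in WT for 7 of 10. Over all genes the medians were 0.16 and 0.11, with the wider spread in WT for 13630 of 19938, a like share. WT replicate 3 was the lowest WT array for 6 of the 10 members. WT replicate 2 was the highest for 4 and the lowest for 3. WT replicate 2 and Satb1-/- replicate 1-2 stood at the same end of their groups for 5 members, both highest for Cldn6 and Igfbp2 and both lowest for Sox3, Zic2 and Sall2, a pattern looked at after the values were seen. Over all genes these arrays shared an end in 24%. The pair had the highest member count of all pairs of a WT and a Satb1-/- array, the others having 1 to 4. Mean levels over the 10 members, each centred on its 6 arrays, were 0.06, 0.22 and -0.09 in WT replicates 1, 2 and 3 and -0.12, -0.06 and -0.01 in Satb1-/- replicates 1-1, 1-2 and 2-1, so the groups were not separated by more than the spread in WT.

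**Figure D3:**
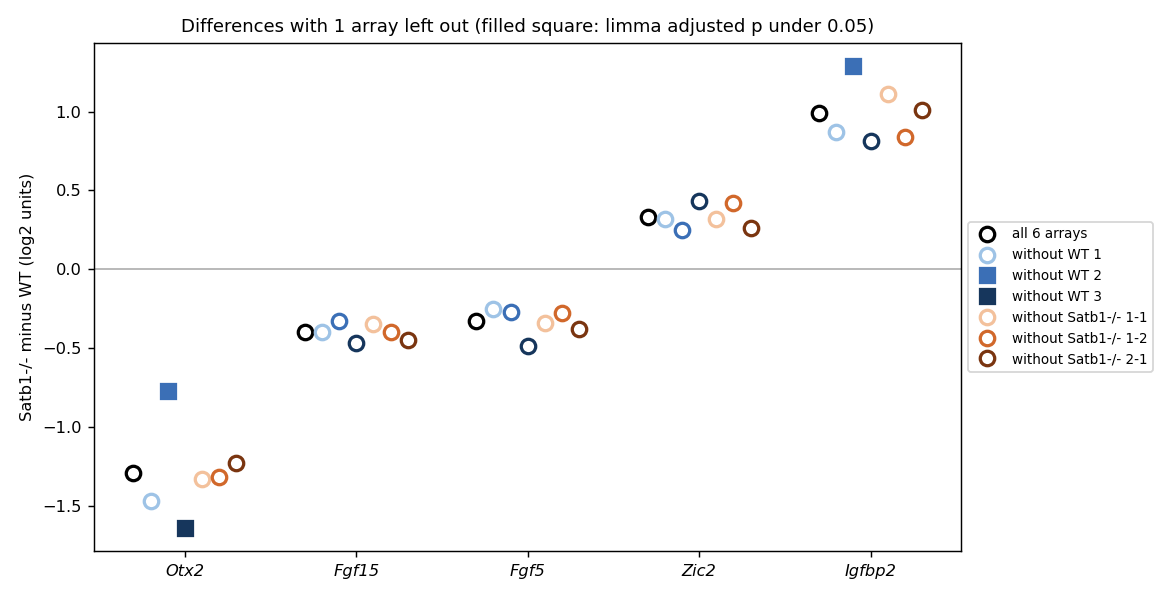
Difference between Satb1-/- and WT in log2 units for the 5 members with an unadjusted p under 0.05, with all 6 arrays (black) and with each array left out in turn; filled squares have a limma adjusted p under 0.05. No difference changes sign, which for Otx2, Fgf15 and Igfbp2 is fixed in advance because their groups do not overlap. The squares are Otx2 without WT replicate 2 (-0.77) or 3 (-1.64) and Igfbp2 without WT replicate 2 (1.29).

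The 10 members lie on 8 chromosomes, with Otx2, Zic2 and Sall2 on chromosome 14. The brighter genes next to each of them, up to 10 on either side, had median differences between -0.20 around Cldn6 and 0.14 around Fgf5. Around Otx2 the median was 0.02 (range -0.31 to 0.26) and around Igfbp2 0.06 (range -0.19 to 0.43), with 0 of 20 neighbours past the threshold at each. The differences of Otx2 and Igfbp2 thus lay outside the range of their neighbours. Around Fgf15 it was 0.09 over 12 neighbours, and that gene's difference of -0.40 was also below all of them (lowest -0.29).

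Genes whose profile over the 6 arrays was closest to that of a member were found among 9960 brighter genes by the root mean square distance of centred values. For Fgf5 they were Specc1 (distance 0.05 log2 units), Arnt2 (0.06) and 1700025H01Rik (0.07). Igfbp2 was followed most closely by Rb1 (0.09), Idh2 (0.12) and Gm10069 (0.13), against a root mean square deviation of 0.60 for Igfbp2 itself. For Otx2, with a deviation of 0.84, the closest were Got1l1 (0.28), Rnf170 (0.45) and Amn1 (0.45). Got1l1 shared the high WT replicate 2 (8.05, against 7.04 and 6.25 in WT replicates 1 and 3). Of these 9 genes only Amn1 passed the threshold (-0.87, limma adjusted p = 0.0121). With 6 arrays this is a description of likeness only.

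A wider list of formative and primed genes that holds none of the 10 members had 23 of 25 genes measured. Of these, 2 fell in Satb1-/- and 0 rose, with a median of -0.06. At an unadjusted p under 0.05, 6 were lower and 3 higher, against 10.5% of all genes in both directions. Car4, which encodes a carbonic anhydrase, read 6.31, 6.71 and 6.75 in WT replicates 1, 2 and 3 and 5.38, 5.19 and 5.15 in Satb1-/- replicates 1-1, 1-2 and 2-1. Its groups lay far apart, and its fall of -1.35 (SE 0.14, limma adjusted p = 0.00107) passed the threshold without any 1 array. The de novo DNA methyltransferase gene Dnmt3a fell by 0.94 (SE 0.18, limma adjusted p = 0.0358), a call that was lost without WT replicate 1 or any 1 Satb1-/- array. Its partner Dnmt3b differed by -0.51 (limma adjusted p = 0.332) and the Wnt effector gene Lef1 by 0.29 (limma adjusted p = 0.527), so values in this list also lay on both sides of 0. The list's count of lower genes was 1 without WT replicate 1 or any 1 Satb1-/- array, and 1 gene was called higher without WT replicate 3.

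The paralogs of the members, 36 measured of 37, had a median difference of 0.01, with 1 gene higher and 1 lower. Sox21, a SOX factor that counteracts Sox2-type activators, rose by 0.54 (limma adjusted p = 0.0358) and Igfbp3, another carrier of insulin-like growth factors, fell by 0.68 (limma adjusted p = 0.0336). Both calls were lost without WT replicate 2 or any 1 Satb1-/- array. Igfbp3 thus differed in the opposite direction from Igfbp2. Its values of 6.69, 7.12 and 7.10 in WT and 6.27, 6.27 and 6.34 in Satb1-/- did not overlap.

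The FGF receptors and the genes that ERK signalling switches on, 20 measured of 23, had 0 calls and a median of 0.01. At an unadjusted p under 0.05 there were 2 genes, both higher, against 10.5% of all genes. These were the feedback inhibitor genes Spry2 (0.50, limma adjusted p = 0.0755) and Dusp6 (0.35, limma adjusted p = 0.198), named after their values were seen. Groups did not overlap for 2 higher genes, Spry2 and Dusp6, against 8.18% of all genes. They did not overlap for 2 lower ones, Fgfr1 (-0.21) and Fos (-0.24), against 6.97% of all genes. Fgf4, the ligand that ES cells make themselves, differed by 0.19 (limma adjusted p = 0.795).

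Naive pluripotency genes, the state that precedes the primed one, are given for comparison: 9 of 19 measured rose and 0 fell, with a median of 0.56, among them Tbx3 (1.59), Nr5a2 (1.32) and Nanog (1.09). The count was 7 without WT replicate 2, 9 without WT replicate 3, 5 without WT replicate 1 or Satb1-/- replicate 1-1, 4 without 1-2 and 3 without 2-1. It was 5 with Satb1-/- 1-1 and 1-2 averaged and 2 (Nanog and Nr5a2) when all probe sets were tested. Whether this list and the markers of the primed state differ in their shift was not tested. Of the general pluripotency genes, 0 of 12 passed the threshold, Pou5f1 differing by -0.39 (limma adjusted p = 0.309) and Sox2 by 0.30 (limma adjusted p = 0.316). Of the 12, 6 had an unadjusted p under 0.05, 1 higher and 5 lower, against 10.5% of all genes in both directions.

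**Figure D4:**
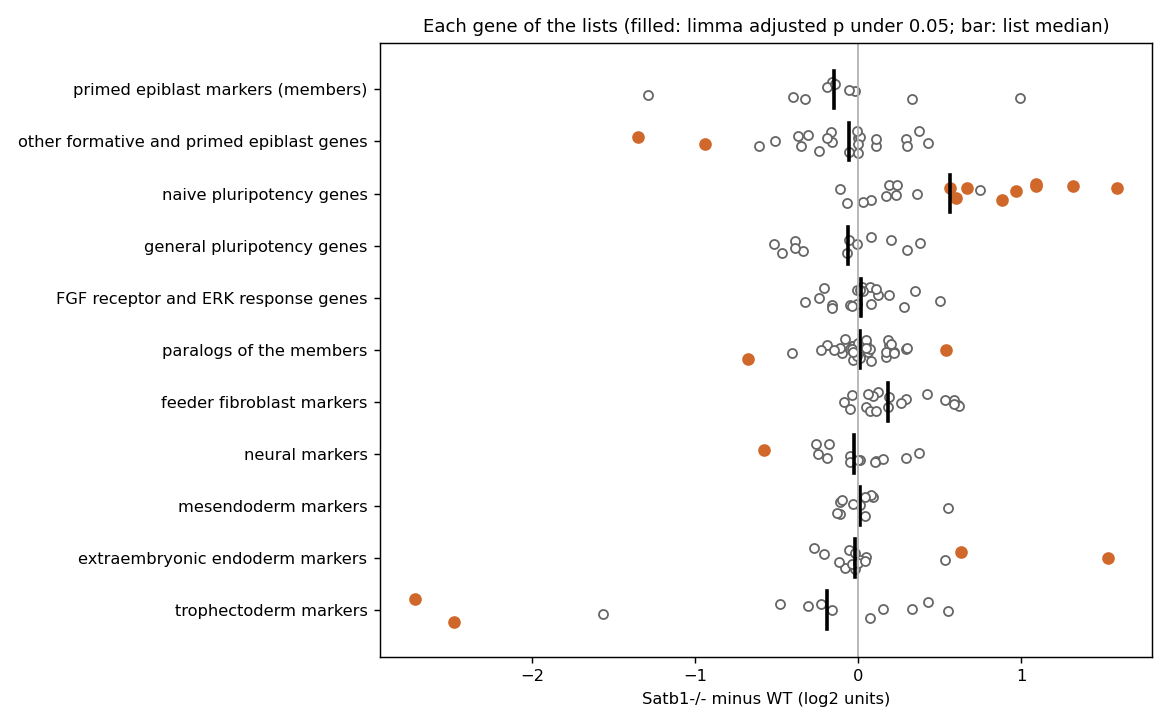
Difference between Satb1-/- and WT in log2 units for every measured gene of each list, with filled points for limma adjusted p under 0.05 and a bar at the list median; points are spread vertically only for legibility. The markers of the primed state lie on both sides of 0 with none filled and a median of -0.15, while the naive list has a median of 0.56.

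Several members are also expressed outside the epiblast, so markers of other cells were read on the same arrays. In the neural list, which shares tissue with Sox3, Pou3f1, Zic2 and Otx2, 1 of 14 genes fell (Nes, which encodes an intermediate filament of neural progenitors, -0.58, limma adjusted p = 0.0466, lost without any 1 of the 6 arrays) and 0 rose, with a median of -0.02. In the mesendoderm list 0 of 11 passed, with 1 at an unadjusted p under 0.05 (10.5% of all genes) and a median of 0.01. In the extraembryonic endoderm list, another tissue that expresses Otx2, 2 of 15 rose and 0 fell. The list median was -0.02, and 9 of the 15 genes had a difference below 0. The genes called were Lama1 (1.53), which passed without any 1 array, and Sparc (0.63). Sparc did not pass without WT replicates 1 or 2 or any 1 Satb1-/- array. Both encode basement membrane proteins. Its transcription factor gene Gata6 read 4.54 in WT and 4.58 in Satb1-/-, close to the array medians; it was named after its values were seen.

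In the trophectoderm list Krt8 (-2.72) and Krt18 (-2.48), the keratin genes of simple epithelia, fell among 12 genes and 0 rose. The list median was -0.20. At an unadjusted p under 0.05 there were 4 lower genes and 3 higher, against 10.5% of all genes in both directions. The higher ones were Eomes (0.55), Tead4 (0.43) and Tfap2c (0.33), named after their values were seen. The calls of Krt8 and Krt18 held without any 1 array but were lost when all probe sets were tested. So were those of Dnmt3a, Sox21, Igfbp3, Nes, Sparc and Satb1 and of 7 of the 9 naive genes. The mean level of the trophectoderm list was highest on WT replicate 3 (0.65, against 0.07 and 0.09 on WT replicates 1 and 2). It lay between -0.32 and -0.19 on the Satb1-/- arrays. The keratins weighed most in it: in WT replicates 1, 2 and 3 Krt18 read 7.98, 8.23 and 9.66 and Krt8 8.80, 8.80 and 10.09. Krt7, Gata3, Cdx2, Ascl2, Hand1 and Eomes were also highest among the WT arrays on replicate 3. Tead4, Tfap2c, Elf5 and Esx1 were not. WT replicate 3 was the lowest WT array for both Otx2 and Igfbp2. Of the feeder markers, 0 of 19 passed the threshold and the median was 0.18. At an unadjusted p under 0.05, 5 were higher and 0 lower, against 10.5% of all genes in both directions. Their differences reached 0.62 for Thy1 (limma adjusted p = 0.262), 0.61 for Postn (limma adjusted p = 0.405) and 0.59 for Dcn (limma adjusted p = 0.545) and Thbs2 (limma adjusted p = 0.128), all named after their values were seen. Col1a1 read 7.95 in WT and 8.07 in Satb1-/- (limma adjusted p = 0.857). The part of these cell types in the members' differences was not tested.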

How the data were processed

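Per the submitters' processing notes, the authors made the deposited log2 values with RMA; no source used here gives its version or settings, or the array's genome build. It covered 35557 probe sets on 6 arrays. Genes were named from the platform annotation: 21789 probe sets had exactly 1 symbol, 1621 several and 12147 none. Where several probe sets shared a symbol, the brightest by mean was kept (19938 genes). Groups were compared with limma 3.58.1 (R 4.3.3; lmFit, then eBayes, on the 2 groups with all genes kept) with Benjamini-Hochberg adjustment over all genes at 0.05, checked on simulated data. Gene order came from RefSeq genes and promoters from the RefSeq table, both GRCm38.p6. The number of arrays limits the precision, since arrays have no read depth.

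The members and lists were chosen with earlier results of these data known. The text names all 10 members, up to 4 changed genes of each list, a few fixed genes, and the 3 closest profiles for Fgf5 and for members that ranged over at least 1 log2 unit. Alternatives were each array left out, array weights, Satb1-/- 1-1 and 1-2 averaged, a second quantile normalization, centring, a filter at the median level, a variance trend and all probe sets. No member had a second probe set.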

Additional observations from a re-analysis of the deposited data

How the results depend on the processing

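No alternative reversed Otx2, Igfbp2, Fgf15, Fgf5, Zic2, Sox3 or Pou3f1. For Otx2, Igfbp2 and Fgf15, whose groups do not overlap, leaving out an array could not have changed the sign. Over all alternatives, including group medians, the differences were -1.82 to -0.77 for Otx2, 0.67 to 1.29 for Igfbp2, -0.47 to -0.33 for Fgf15, -0.49 to -0.25 for Fgf5 and 0.25 to 0.45 for Zic2. The count of members past the threshold, 0 with all arrays, was 2 with array weights (Otx2 at -1.82 and Fgf15) and 0 to 2 with 1 array left out. The count of members whose groups did not overlap, 3, was 5 with Satb1-/- 1-1 and 1-2 averaged and 3 to 6 with 1 array left out. Fewer arrays make separation easier. The share of all genes without overlap was not counted in these settings, so these counts cannot be judged against it. Over all genes, 279 calls became 608 with array weights, 117 with 1-1 and 1-2 averaged, 83 over all probe sets and 94 to 480 with 1 array left out. With 1 array left out, Sall2 lay between -0.14 and 0.05, Tcf15 between -0.16 and 0.05 and Cldn6 between -0.31 and 0.01. Sall2 turned positive without WT replicate 1 (0.03) or 3 (0.05) or Satb1-/- replicate 1-2 (0.03), with array weights (0.10), after a second quantile normalization (0.00) and with arrays centred (0.01); Tcf15 did so without Satb1-/- replicate 1-2 (0.05), and Cldn6 without WT replicate 2 (0.01) or Satb1-/- replicate 1-1 (0.00). The array weights were 0.46, 1.71 and 0.445 for WT replicates 1, 2 and 3, so the weighted WT mean rests mostly on WT replicate 2. For Satb1-/- replicates 1-1, 1-2 and 2-1 they were 1.33, 1.08 and 1.99. The cause of the difference between WT arrays was not tested. No paired analysis was possible because the groups share no replicate numbers. Among the members, the filter at the median level left Sall2 out, and it also left out Satb1. No background level was read for these arrays.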
